A study of Mus musculus with 12 samples.

Results

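*Hoxa9*, *Hoxa10* and *Hoxa11* of the HoxA cluster and *Hoxd9*, *Hoxd10* and *Hoxd11* of the HoxD cluster are the 6 genes that carry frameshift mutations in the mice studied here. Their rows were taken by gene symbol from a table of 36186 genes, and all 6 were present. The table holds RNA-Seq values of 12 libraries from the E15.5 forelimb zeugopod (the segment of the radius and ulna) of mice on a mixed 129/CD-1 background, with chondrocytes isolated by laser capture microdissection (LCM). The resting, proliferative and hypertrophic zones of WT embryos gave 3 libraries each (the hypertrophic zone is labelled hyperproliferative in the sample records), and 3 libraries came from mutants homozygous at both clusters, termed *aadd*. In *aadd* each of the 6 genes has a LoxP insertion with a small deletion in the coding region of its first exon, while the DNA between the genes was left in place. The *aadd* sample records give the compartment as resting, while the paper describes the whole chondrocyte population of the small mutant zeugopod. Genotype and the make-up of the captured tissue therefore cannot be told apart in any *aadd* comparison. The captured samples of both genotypes, WT zones included, are described as mainly chondrocytes with some flanking perichondrium. All values are NRPKM, the authors' normalized form of RPKM (read counts scaled to transcript length and library depth). The scaling to length lets levels of different genes be set side by side. Other differences between genes in amplification and counting were not measured, so orders of genes and ratios between genes within a library are approximate.

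Hox genes encode homeodomain transcription factors that give positional identity along the body axis and along the limb. The genes lie in 4 clusters, and genes at matching positions in different clusters (paralogues such as *Hoxa11* and *Hoxd11*) have closely related homeodomains and overlapping functions. In the limb, the genes towards the 5′ end of HoxA and HoxD are used in more distal segments, with the Hox11 paralogues known for the zeugopod and the Hox13 paralogues for the hand and foot. A frameshift in a first exon removes the reading frame of the homeodomain but need not stop transcription, so the mutant alleles can still be measured as RNA.

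The homeobox, the 180 bases that encode the DNA-binding homeodomain, was found in exon 2 of the coding transcript of all 6 genes in the GENCODE annotation of mm10, downstream of the mutated first exon. The stretch that encodes the third helix, which contacts the major groove of DNA, is printed for the Hox10 and Hox11 genes because its sequence sets which DNA bases the protein contacts. Capitals mark the 18 bases that start with the codon of the invariant tryptophan.
*Hoxa10*, chr6:52232560-52232610, minus strand: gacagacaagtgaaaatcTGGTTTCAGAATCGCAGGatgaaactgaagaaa
*Hoxd10*, chr2:74694264-74694314, plus strand: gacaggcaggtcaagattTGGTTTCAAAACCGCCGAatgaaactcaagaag
*Hoxa11*, chr6:52243408-52243458, minus strand: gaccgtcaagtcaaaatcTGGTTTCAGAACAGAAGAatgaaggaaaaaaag
*Hoxd11*, chr2:74684040-74684090, plus strand: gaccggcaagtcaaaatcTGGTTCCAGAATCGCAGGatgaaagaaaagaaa
Over the whole homeobox the 3 pairs of paralogues were 78.9% to 82.8% identical, against 65.0% to 77.2% for the 6 pairs within a cluster. The longest identical run between the full transcripts of any pair was 28 bases, between *Hoxd9* and *Hoxd11*, and it was 14 to 17 bases between paralogues.

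The rows of the 6 genes span chr6:52224054-52227370 for *Hoxa9*, chr6:52231197-52240854 for *Hoxa10*, chr6:52242106-52245767 for *Hoxa11*, chr2:74697763-74700208 for *Hoxd9*, chr2:74691948-74695102 for *Hoxd10* and chr2:74682393-74684138 for *Hoxd11* (mm10). The step between low values of single-exon genes gave an estimated depth of 1890000 to 3240000 counted reads per library, with group medians of 2560000 (WT resting), 1910000 (WT proliferative), 2980000 (WT hypertrophic) and 2780000 (*aadd*). With these steps and the exon lengths of the rows, the values of 5 of the members came out at multiples of 0.02 reads (within 0.002) in 12 of 12 libraries. *Hoxa11* did so in 1 of 12 libraries, and 686 bases of its row lie under the row of the antisense gene *Hoxa11os*, so its values are uncertain to the extent that reads are shared. The row of *Hoxd11* covers 1011 bases of exon, the shortest of the 6. WT hypertrophic replicate 1 stood apart from the other two libraries of its group, with *Mmp13* (a matrix protease of late hypertrophic cartilage) at 3.05 NRPKM against 735 and 661, and every comparison with that group is therefore given with and without it where a call depends on it. *Sox9* (the chondrocyte master regulator) was at 141 to 186 NRPKM in *aadd*, 156 to 174 in the resting libraries and 164 to 180 in the proliferative ones, but at 12.9 and 17.6 in hypertrophic replicates 2 and 3, against 143 in replicate 1. The labels do not say which libraries came from separate embryos, so *P* values measure the spread between libraries.

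In the WT resting compartment all 6 genes were transcribed. *Hoxa11* had the highest mean, 21.6 ± 9.67 NRPKM (SD, n = 3), and *Hoxd11* the lowest, 5.82 ± 1.49. The order of the means was *Hoxa11*, *Hoxa10* (18.3 ± 6.01), *Hoxa9* (16.9 ± 6.67), *Hoxd10* (15.9 ± 6.35), *Hoxd9* (6.85 ± 1.70) and *Hoxd11*. Of the 5 neighbouring pairs in this order, the ranges of the libraries were separate only between *Hoxd10* and *Hoxd9*, so the first 4 genes were not told apart, nor were the last 2. *Hoxa11* lay above 69.3% of the 10936 genes tested, *Hoxd10* above 56.3% and *Hoxd11* above 14.4%. In the WT proliferative compartment *Hoxa11*, *Hoxa9* and *Hoxa10* again came first, at means of 10.2 to 7.59 NRPKM, and a gap without overlap followed before *Hoxd10*, *Hoxd9* and *Hoxd11* at 3.51 to 2.44. In the hypertrophic compartment the same 2 blocks remained, with *Hoxa10*, *Hoxa11* and *Hoxa9* at 7.38 to 6.32 and *Hoxd9*, *Hoxd10* and *Hoxd11* at means from 2.497 down to 0.881, but here no pair of neighbours had separate ranges.

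**Figure D1:**
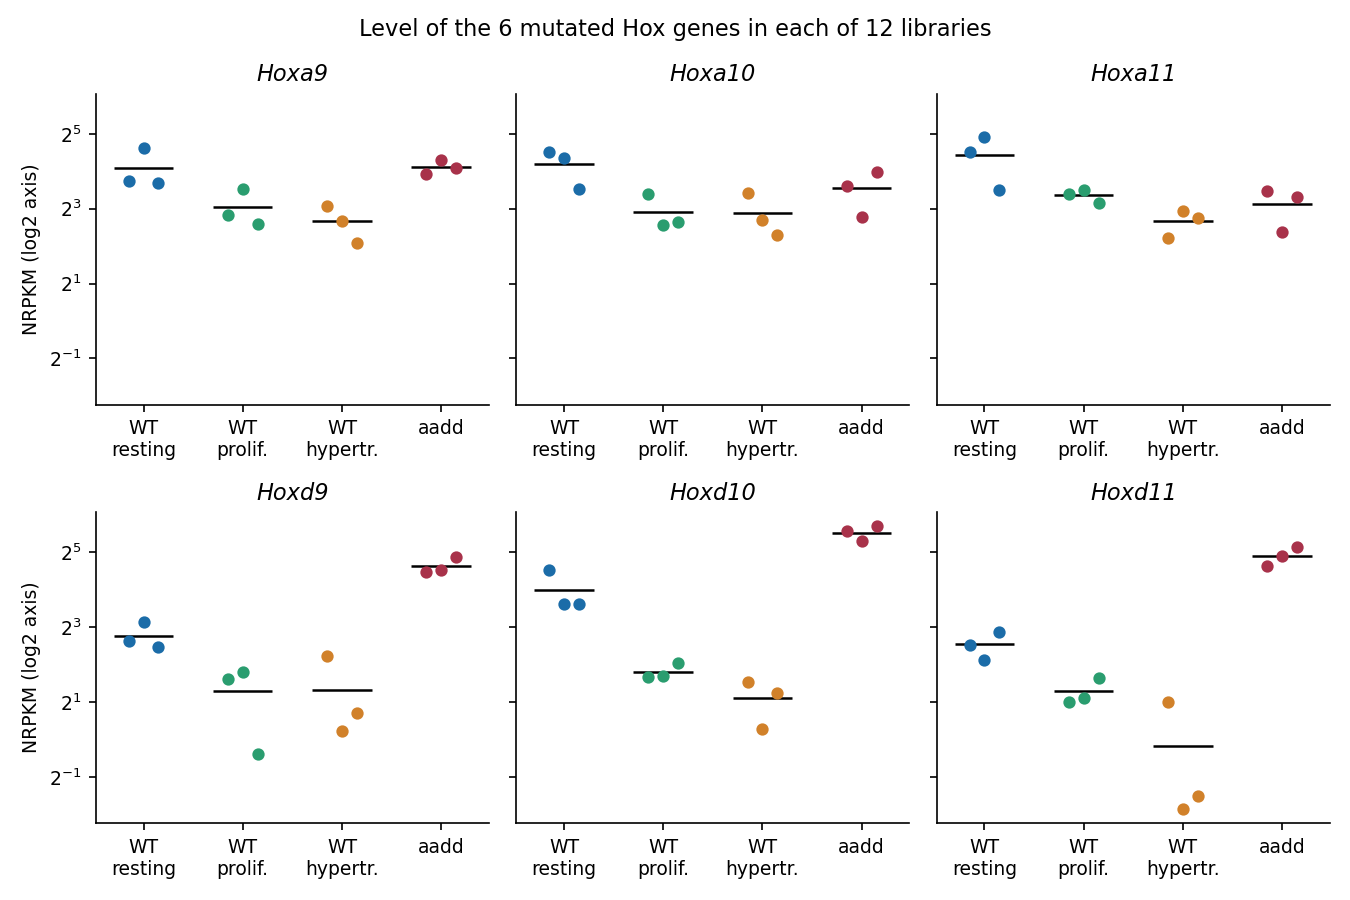
NRPKM (log2 axis) of each mutated gene in the 3 libraries of WT resting, WT proliferative, WT hypertrophic and *aadd*, with a black bar at the group mean. Levels fall from resting to hypertrophic in every panel, and the *aadd* points lie above all WT points for *Hoxd9*, *Hoxd10* and *Hoxd11* only.

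Across the WT compartments *Hoxd10* and *Hoxd11* had the largest differences in mean, on a ratio scale, between resting and hypertrophic libraries. *Hoxd10* was at 23.3, 12.3 and 12.2 NRPKM in the resting libraries, at 3.17, 3.21 and 4.14 in the proliferative and at 2.87, 1.21 and 2.37 in the hypertrophic ones. Its 3 groups of libraries did not overlap, each compartment lying below the one before, and its resting mean was 7.42 times the hypertrophic mean. *Hoxd11* was at 5.80, 4.34 and 7.31 NRPKM in resting, at 2.002, 2.17 and 3.13 in proliferative and at 2.02, 0.275 and 0.352 in hypertrophic libraries. The resting libraries stood above both other compartments, while hypertrophic replicate 1 lay inside the proliferative range and the other 2 hypertrophic libraries lay far below it. These 2 values rest on 0.90 and 1.06 counted reads, against 10.5 to 18.9 reads in resting, so the size of the last step of *Hoxd11* is poorly determined at this depth. *Hoxd9* was at 6.18, 8.79 and 5.59 NRPKM in resting, at 3.09, 3.46 and 0.757 in proliferative and at 4.69, 1.18 and 1.62 in hypertrophic libraries. The means of *Hoxd9* were 2.44 ± 1.47 and 2.497 ± 1.91 NRPKM in the proliferative and hypertrophic compartments, whose libraries overlapped, and the lowest proliferative value rests on 3 reads.

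The means of the HoxA genes were also lower in hypertrophic than in resting libraries, by ratios nearer to that of *Hoxd9*. *Hoxa11* was at 23.0, 30.5 and 11.3 NRPKM in resting, at 10.5, 11.3 and 8.94 in proliferative and at 4.67, 7.68 and 6.74 in hypertrophic libraries. Resting replicate 3 lay just below the highest proliferative library, and all hypertrophic libraries lay below all proliferative ones. *Hoxa10* was at 22.8, 20.6 and 11.5 NRPKM in resting, at 10.6, 5.94 and 6.25 in proliferative and at 10.7, 6.51 and 4.90 in hypertrophic libraries. *Hoxa9* was at 13.4, 24.6 and 12.8 NRPKM in resting, at 7.17, 11.4 and 5.99 in proliferative and at 8.38, 6.32 and 4.26 in hypertrophic libraries. For both genes the resting libraries lay above the other 6 WT libraries, and the proliferative and hypertrophic libraries overlapped. Resting replicate 3 was the lowest resting library for 5 of the 6 mutated genes, and it was the highest for *Hoxd11*.

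The gradient was tested as a straight line over the 3 compartments in the 9 WT libraries, on log2(NRPKM + 0.1) with limma, which understates changes of low genes. The fitted change is that from resting to hypertrophic. All 6 genes were called lower (unadjusted *P* of at most 0.05 and at least 2-fold), against 7.10% of the 10936 genes tested, and the median change was -1.65 against -0.02 over all genes. At an adjusted *P* of at most 0.05, 4 of the 6 were lower, against 4.76% of all genes. On the log2 scale the change was -3.03 for *Hoxd11* (SE 0.58, adjusted *P* = 0.0148) and -2.85 for *Hoxd10* (SE 0.43, adjusted *P* = 0.00583). It was -1.66 for *Hoxa11* (SE 0.34, adjusted *P* = 0.0203), -1.39 for *Hoxa9* (SE 0.37, adjusted *P* = 0.0473) and -1.31 for *Hoxa10* (SE 0.43, adjusted *P* = 0.0887). *Hoxd9* changed by -1.64 with the widest error (SE 0.68, adjusted *P* = 0.168), and its call was lost in 7 of the 9 fits that each left out 1 library, all 3 resting libraries among them, with adjusted *P* up to 0.383. The calls of the other 5 genes held in all 9 of those fits. Without hypertrophic replicate 1 the call stood for all 6 genes, with changes of -3.71 for *Hoxd11* and -2.29 for *Hoxd9* (adjusted *P* = 0.0461). With a pseudocount of 1 the change of *Hoxd11* was -1.95, smaller than the -2.41 of *Hoxd10*, so the order of these 2 genes depends on how low values are treated.

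In the fitted values the larger part of the decline lay between resting and proliferative cells for 5 of the 6 genes, *Hoxd11* being the exception. The steps of *Hoxa11* were close, at -0.96 (SE 0.37) and then -0.70 (SE 0.24). Its first step ranged from -1.37 to -0.65 over the alternative fits. Whether the 2 steps differ in size was not tested. From resting to proliferative 5 of the 6 genes were called lower, against 2.97% of all genes tested, and every proliferative library lay below every resting library for 5 of the 6 genes, against 14.2% of all genes. *Hoxd10* changed most, by -2.09 (SE 0.29, adjusted *P* = 0.0445), and was the only member with an adjusted *P* under 0.05, against 0.247% of all genes that were lower at this limit. Same-numbered libraries of these 2 compartments deviated together (correlations of 0.18 to 0.28), but the labels do not state a pairing. With the number as a block in limma the adjusted *P* of *Hoxd10* was 0.0888 and 9 genes of all tested passed in place of 68. The other calls were *Hoxd9* (-1.68, SE 0.56), *Hoxa10* (-1.25, SE 0.34), *Hoxd11* (-1.22, SE 0.26) and *Hoxa9* (-1.02, SE 0.35), with adjusted *P* of 0.116 to 0.235. *Hoxa11* changed by -0.96 (SE 0.37, adjusted *P* = 0.271), just short of the 2-fold limit. Without resting replicate 2 the calls of *Hoxa9* and *Hoxd9* were lost, leaving 3 of the 6. The call of *Hoxa9* was also lost without proliferative replicate 1 (adjusted *P* = 0.293) or 3 (0.409), *Hoxd9* changed by -1.02 without proliferative replicate 3, and *Hoxa11* was called without resting replicate 3 (-1.37, adjusted *P* = 0.156).

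From proliferative to hypertrophic 1 of the 6 genes was called lower, against 4.34% of all genes tested. This was *Hoxd11*, at -1.81 (SE 0.67, adjusted *P* = 0.232), and leaving out either low hypertrophic library or any proliferative library ended the call. With limma 0 of the 10936 genes tested had an adjusted *P* under 0.05 in this comparison, although 2115 had an unadjusted *P* under 0.05. Without the filter on low values 45 of 23070 genes had a limma adjusted *P* under 0.05. Without hypertrophic replicate 1, 1905 genes had an adjusted *P* under 0.05 and *Hoxd11* changed by -2.60 (adjusted *P* = 0.00702), and with all 12 libraries in one limma fit 705 genes did. For 2 of the 6 genes, *Hoxa11* (-0.70, SE 0.24) and *Hoxd10* (-0.75, SE 0.34), all hypertrophic libraries lay below all proliferative ones, against 10.9% of all genes, with a change under the 2-fold limit, while *Hoxa9* (-0.37, SE 0.35), *Hoxa10* (-0.06, SE 0.37) and *Hoxd9* (0.04, SE 0.72) differed by about their error or less. Between hypertrophic and resting cells directly, all 6 genes were called lower, against 7.20% of all genes tested, and all hypertrophic libraries lay below all resting libraries for each of them, against 17.8% of all genes. The change of *Hoxd11* was -3.03 there, -1.95 with a pseudocount of 1 and -3.81 without hypertrophic replicate 1. The call of *Hoxd9* was lost without resting replicate 2 (adjusted *P* = 0.296) or hypertrophic replicate 3 (0.281).

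Cartilage genes and markers of other cell types differed between the same compartments. Of 12 cartilage genes 9 were called lower along the gradient, against 7.10% of all genes tested, and 11 from proliferative to hypertrophic cells, against 4.34%. From resting to proliferative cells, where 5 of the 6 Hox genes were called lower, 0 of the 12 were. Their summed level was 3046 to 4497 NRPKM in resting, 3442 to 5666 in proliferative and 776 to 3343 in hypertrophic libraries. All 10 genes of a hypertrophic list were called higher along the gradient, against 628 of the 10936 genes tested. Skeletal muscle genes summed to 9.80 to 19.3 NRPKM in resting and 22.5 to 51.1 in hypertrophic libraries. In the proliferative libraries the muscle sums were 21.8, 11.6 and 146. Erythroid genes summed to 41.6 to 51.8 NRPKM in resting, 40.4 to 95.8 in proliferative and 96.1 to 228 in hypertrophic libraries. Summed over a list of 10 endothelial genes, the WT hypertrophic libraries held 21.8, 210 and 303 NRPKM against 5.24 to 12.1 in resting, and 9 osteoclast and macrophage genes summed to 46.9 to 985 against 26.01 to 31.0. In the proliferative libraries both sums (7.38 to 15.2 and 27.6 to 33.4 NRPKM) were near those of resting. A list of 10 perichondrium and fibroblast genes was measured because Hox genes are known to be active in perichondrium. It had 4 members called higher and none lower along the gradient, against 628 of 10936 genes called higher. *Col1a1* (type I collagen), a member, was at 142 to 355 NRPKM in resting and 360 to 1187 in hypertrophic libraries. The summed level of this list was 653 to 1029 NRPKM in resting, 746 to 1555 in proliferative and 980 to 2414 in hypertrophic libraries, in ranges that overlapped from each compartment to the next. Of the tendon list 3 of 4 tested members were called lower along the gradient, against 7.10% of all genes. Of the joint list 4 of 9 were called lower, against the same 7.10%, and 2 higher, against 628 of 10936 genes. The part of these cells in the Hox gradient was not tested. In such bulk samples fewer expressing cells and less RNA per cell cannot be told apart.

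**Figure D2:**
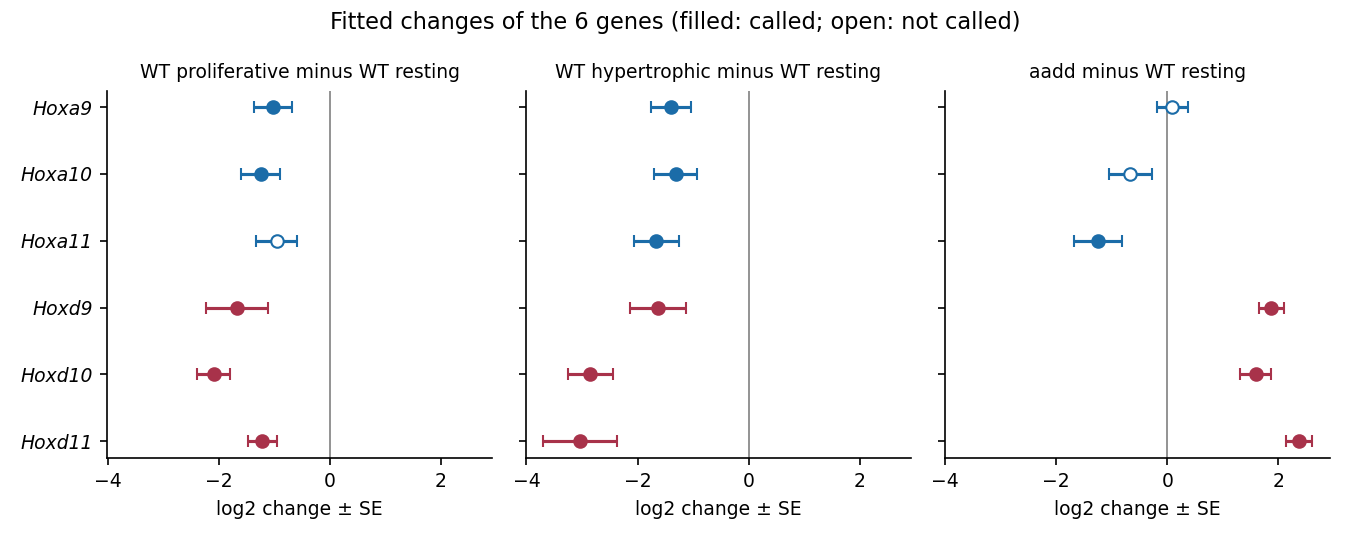
Fitted log2 change with its standard error for each mutated gene in 3 comparisons with WT resting (blue, HoxA; red, HoxD; filled points were called, open points were not). Both WT compartments are below resting for every gene, and in *aadd* the 3 HoxD genes are on the opposite side from *Hoxa11*.

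The HoxD share of the 6 transcripts was higher in the mutant than in any WT compartment. Summed over its 3 mutated genes, HoxA stood at 59.2, 75.7 and 35.5 NRPKM in the resting libraries and HoxD at 35.3, 25.5 and 25.1. HoxD thus held 34.7% ± 8.45 (SD, n = 3) of the summed level of the 6 genes in resting, 24.6% ± 2.58 in proliferative and 20.6% ± 8.66 in hypertrophic libraries, and the ranges of neighbouring compartments overlapped. In *aadd* the HoxA sum was 38.5, 31.8 and 42.9 NRPKM and the HoxD sum was 94.9, 92.7 and 117, so HoxD held 72.9% ± 1.66. The lowest *aadd* share (71.2%) was well above the highest share of any WT library (41.4%).

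**Figure D3:**
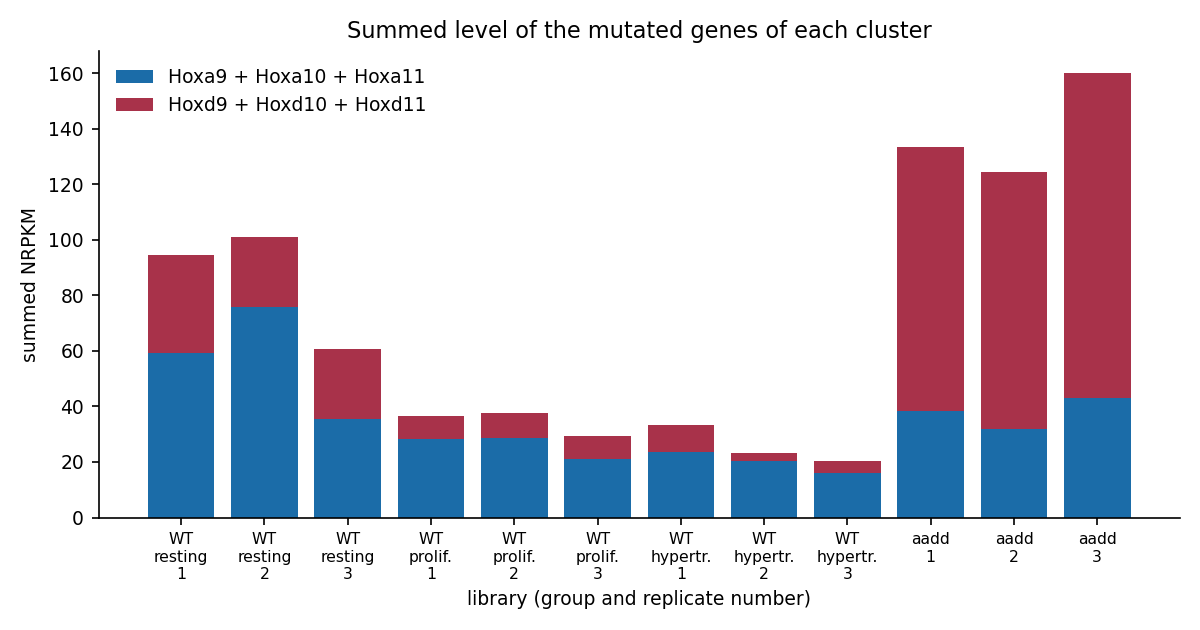
Summed NRPKM of the 3 mutated HoxA genes (blue) and the 3 mutated HoxD genes (red) in each of the 12 libraries. The red part is the smaller one in all 9 WT libraries and the larger one in all 3 *aadd* libraries.

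Transcripts of all 6 frameshift alleles remained in the mutant. The HoxD genes were the higher ones, in the order *Hoxd10* (46.3 ± 6.34 NRPKM), *Hoxd11* (30.2 ± 5.15) and *Hoxd9* (25.1 ± 3.93), followed by *Hoxa9* (17.3 ± 2.27), *Hoxa10* (11.7 ± 4.50) and *Hoxa11* (8.76 ± 3.15). This order of means puts *Hoxa11* last, where it was first in WT resting, and *Hoxd11* second, where it was last. Among neighbours in the *aadd* order, library ranges were separate only between *Hoxd10* and *Hoxd11* and between *Hoxd9* and *Hoxa9*. In both groups *Hoxa11* and its neighbour overlapped, so its exact rank is not settled, nor is that of *Hoxd11*. *Hoxd10* lay above 90.4% of the genes tested and *Hoxa11* above 29.3%. *Hoxd9* was at 22.5, 23.2 and 29.6 NRPKM in the *aadd* libraries (107 to 178 reads), *Hoxd10* at 47.3, 39.6 and 52.1 (156 to 267 reads) and *Hoxd11* at 25.1, 30.0 and 35.4 (66.7 to 102 reads). The deposited value covers all exons of a row, and whether reads fell before or after the LoxP site cannot be read from it. The row of *Hoxa10* also covers a first exon of 577 bases that belongs to another coding transcript and does not overlap the first exon of the longest one, and the deposited value does not separate the 2 transcripts.

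Against WT resting, the 3 HoxD genes were called higher in *aadd* (unadjusted *P* of at most 0.05 and at least 1.5-fold), against 3.78% of all genes tested. The change was 2.37 for *Hoxd11* (SE 0.24, adjusted *P* = 0.0391), 1.87 for *Hoxd9* (SE 0.22, adjusted *P* = 0.0543) and 1.59 for *Hoxd10* (SE 0.28, adjusted *P* = 0.167), which are 5.18-fold, 3.66-fold and 3.01-fold on this scale. At an adjusted *P* of at most 0.05, *Hoxd11* was the single member that was higher, against 0.0823% of all genes. *Hoxd11* reached the 5 NRPKM needed for testing in only 2 WT libraries, both resting. It was thus tested because of its level in *aadd*, so its call is not counted as support, and without the filter its adjusted *P* was 0.0958. Of the 5 members that passed the filter in WT libraries alone, 2 were called higher, against 3.78% of all genes tested, and 1 lower. The calls of the 3 genes held in all 13 alternatives run for each gene. Every *aadd* library lay above every resting library for these 3 genes, against 8.08% of all genes tested, and above all 9 WT libraries, against 2.82%. *Hoxa11* was called lower, against 2.78% of all genes tested, at -1.25 (SE 0.44, adjusted *P* = 0.429). Its *aadd* libraries, at 11.1, 5.17 and 10.0 NRPKM, all lay below the resting ones, against 7.34% of all genes. That call was lost without resting replicate 1 (adjusted *P* = 0.467), resting replicate 2 (0.859) or *aadd* replicate 2 (0.554), and the lowest resting library (11.3 NRPKM) was barely above the highest *aadd* library. *Hoxa10* (12.2, 6.93 and 15.9 NRPKM in *aadd*) differed by -0.66 (SE 0.38, adjusted *P* = 0.651) and *Hoxa9* (15.2, 19.7 and 17.0 NRPKM) by 0.09 (SE 0.28, adjusted *P* = 0.937), and both overlapped with resting. *Hoxa10* was called lower without resting replicate 3 (-0.97, adjusted *P* = 0.549).

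Because *aadd* was taken as a whole population, the members are also set beside the other WT compartments. For 4 of the 6 genes all *aadd* libraries lay above all proliferative ones, against 15.3% of all genes, and above all hypertrophic ones, against 17.0%. The *aadd* mean of *Hoxa9* was 2.11 times the proliferative mean and 2.74 times the hypertrophic mean, and its *aadd* libraries lay above all 6 of those libraries. *Hoxa10* and *Hoxa11* in *aadd* overlapped with both later compartments. For *Hoxd11* the *aadd* mean was 12.4 times the proliferative mean, for *Hoxd10* 13.2 times and for *Hoxd9* 10.3 times.

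Between paralogues, every *aadd* library had more HoxD than HoxA transcript and nearly every WT library had less. The log2 ratio of *Hoxd11* to *Hoxa11* was -1.79 ± 1.09 (SD, n = 3) in WT resting and 1.83 ± 0.67 in *aadd*, a shift of 3.62. The ratio of *Hoxd10* to *Hoxa10* moved from -0.20 ± 0.46 to 2.05 ± 0.40 and that of *Hoxd9* to *Hoxa9* from -1.25 ± 0.20 to 0.53 ± 0.28. The exceptions among the 9 WT libraries were resting replicates 1 and 3 for *Hoxd10* and *Hoxa10*, where the 2 genes were about equal (ratios of 1.02 and 1.07). For each pair the *aadd* and resting ratios did not overlap, and the exact 2-sided permutation test gave *P* = 0.1 for each of the 3 pairs, the smallest value that 3 libraries against 3 allow.

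Unmutated genes of HoxD were also higher in *aadd*. Of the 6 unmutated *Hoxd* genes, 5 had all *aadd* libraries above all 9 WT libraries, against 1.22% of all 36186 genes and 2.82% of those tested, the exception being *Hoxd1*, which was at 0 in most libraries. Of the 8 unmutated *Hoxa* genes 4 did so (*Hoxa2*, *Hoxa5*, *Hoxa7* and *Hoxa13*). *Hoxd13*, the Hox gene nearest the 5′ end and a regulator of hand and foot development, was at 0.409, 0.503 and 0.315 NRPKM in resting and at 20.8, 17.6 and 31.2 in *aadd*. The resting libraries held at most 3 counted reads of *Hoxd13*, and it passed the filter through the *aadd* libraries alone, so no test is given for it. *Hoxd8*, on the other side of the mutated genes, was at 3.75, 9.75 and 7.39 NRPKM in resting and at 33.8, 26.1 and 34.4 in *aadd*, a change of 2.25 (SE 0.35, adjusted *P* = 0.117). *Hoxd12* (0.255 against 6.10 NRPKM in the means), *Hoxd3* (0.258 against 3.29) and *Hoxd4* (0.611 against 2.44) were too low to be tested. Of the 16 unmutated HoxA and HoxD genes, *Evx1* and *Evx2* included, 7 passed the filter, and 2 of these (*Hoxd13* and *Hoxa2*) would not have passed without the *aadd* libraries. Of the other 5, 2 were called higher in *aadd*, against 3.78% of all genes tested. These were *Hoxd8* and *Hoxa5* (0.64, SE 0.25, adjusted *P* = 0.478), and the call of *Hoxa5* was lost in 5 of the 6 fits that each left out 1 library. *Hoxa2* was at 6.39, 10.4 and 4.28 NRPKM in resting and at 17.5, 11.3 and 12.2 in *aadd*.

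**Figure D4:**
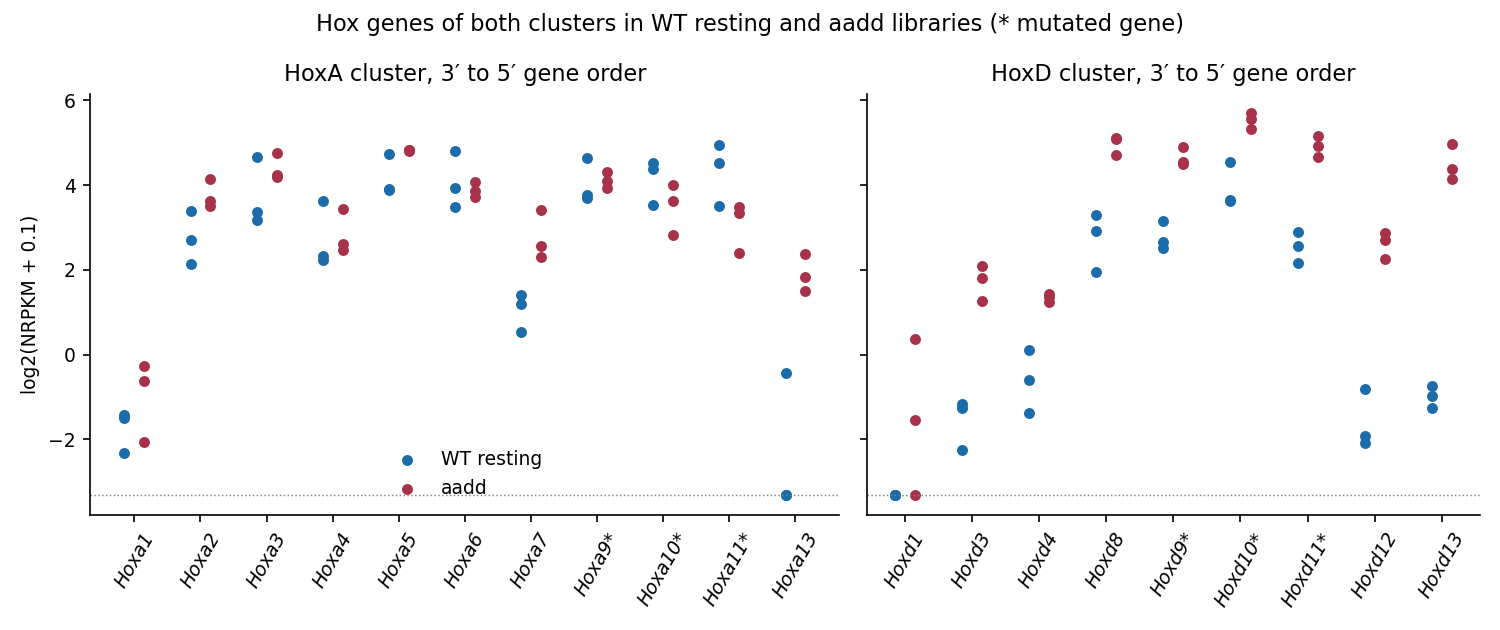
log2(NRPKM + 0.1) of the Hox genes of both clusters in the 3 WT resting (blue) and 3 *aadd* (red) libraries, in cluster order, with mutated genes starred and a dotted line at a value of 0. In HoxD the red points lie above the blue ones for 8 of 9 genes, and in HoxA for 4 of 11.

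Along the WT compartments 5 of the 7 unmutated genes that could be tested were called lower too, against 7.10% of all genes tested, all 5 of them in HoxA. The 2 unmutated HoxD genes that could be tested, *Hoxd8* and *Hoxd13*, were not called. *Hoxd13* was tested only because of its *aadd* libraries and held at most 11.1 reads in any WT library. A fall could hardly have been seen there, so only *Hoxd8* bears on the unmutated HoxD genes. *Hoxa2*, *Hoxa3*, *Hoxa4*, *Hoxa5* and *Hoxa6* were called lower, with changes of -1.34 to -2.52 and adjusted *P* of 0.0177 to 0.172. The call of *Hoxa4* was lost in 6 of the 9 fits that each left out 1 library and without the filter, and those of the other 4 genes held. *Hoxd8* changed by -0.35 (SE 0.58) and *Hoxd13* by 0.89 (SE 0.68). Of these *Hoxa3*, *Hoxa4*, *Hoxa5* and *Hoxa6* were called lower from proliferative to hypertrophic cells (against 4.34% of all genes, with the calls of *Hoxa4* and *Hoxa6* each lost in 4 of 6 fits that left out 1 library) and none of the 7 genes was called from resting to proliferative cells. *Hoxa5*, for example, had means of 18.7 and 15.5 NRPKM in resting and proliferative and 4.85 in hypertrophic libraries, whereas *Hoxa10* had 18.3, 7.59 and 7.38. Whether the timing differs between the mutated and unmutated HoxA genes was not tested.

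The 150 bases upstream of the start sites of the 3 mutated HoxD genes are printed because these genes were higher together in *aadd* (RefSeq promoter table, mm10). Unmutated HoxD genes were higher too, and the part of these windows in the levels was not tested.
*Hoxd9*, chr2:74697577-74697726, plus strand: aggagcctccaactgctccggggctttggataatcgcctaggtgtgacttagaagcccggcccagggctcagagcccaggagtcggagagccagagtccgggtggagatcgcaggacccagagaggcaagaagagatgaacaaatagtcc
*Hoxd10*, chr2:74691741-74691890, plus strand: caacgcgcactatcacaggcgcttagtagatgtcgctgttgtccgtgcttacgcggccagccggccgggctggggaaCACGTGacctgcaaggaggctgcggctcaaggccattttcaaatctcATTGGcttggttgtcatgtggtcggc
*Hoxd11*, chr2:74682173-74682322, plus strand: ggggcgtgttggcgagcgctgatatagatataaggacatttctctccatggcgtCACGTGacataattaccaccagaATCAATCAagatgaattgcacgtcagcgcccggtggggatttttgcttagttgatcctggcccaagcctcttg
Capitals mark matches, on either strand, to 6 motifs: TGATTNAT (the form bound by Pbx and Hox proteins together), TTTATNG (a site of 5′ Hox proteins), TGACAG (Meis and Pknox proteins), TATAAA (the TATA box), CACGTG (an E-box of basic helix-loop-helix proteins) and CCAAT (the CCAAT box). CACGTG was present in the *Hoxd10* and *Hoxd11* windows and in 4.30% of 32817 promoter windows of the same length. TGATTNAT was present once, in the *Hoxd11* window, and in 1.62% of all windows. CCAAT was found in the *Hoxd10* and *Hoxa10* windows and in 24.5% of all windows, and the windows of *Hoxa9*, *Hoxa11* and *Hoxd9* held none of the 6. The number of CpG dinucleotides ranged from 2 in *Hoxa9* to 17 in *Hoxa10*, with a median of 4 over all windows. These matches describe the letters of each window and no binding was measured.

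Transcripts that lie between or across the mutated genes were also listed. *Hoxa11os* was at 8.47, 14.3 and 2.38 NRPKM in resting and at 5.11, 5.20 and 8.74 in *aadd*, with means of 2.75 ± 1.75 in proliferative and 1.58 ± 0.93 in hypertrophic libraries. Resting replicate 3, the lowest resting library for *Hoxa11*, was also the lowest for *Hoxa11os*, and whether strand was used in counting is not given in the sources used here. *Mira*, a noncoding transcript between *Hoxa6* and *Hoxa7*, had a mean of 6.23 ± 2.46 NRPKM in resting and 24.7 ± 3.58 in *aadd*. The precursor row of *Mir196b*, which lies between *Hoxa9* and *Hoxa10*, and that of *Mir10b* in HoxD reached 11.6 and 14.8 NRPKM, but over 85 and 68 bases these are 2.82 and 2.22 reads at most. *1700109F18Rik*, in HoxD, had a mean of 1.56 ± 0.21 NRPKM in resting and 6.21 ± 2.57 in *aadd*. *5730596B20Rik* (5.06 ± 3.61 against 7.76 ± 1.07 NRPKM) and *2700086A05Rik* (3.26 ± 0.995 against 3.29 ± 0.47 NRPKM), both in HoxA, differed by less than the spread of their libraries.

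The paralogues of the same groups in HoxB and HoxC were at low levels. *Hoxb9*, *Hoxc9*, *Hoxc10* and *Hoxc11* summed to 0.428 to 2.76 NRPKM over the 12 libraries, 0 of the 4 passed the filter for testing, and *Hoxc11* was listed at 0 in every library. The *aadd* sums, 0.812 to 2.59 NRPKM, overlapped with those of the WT libraries. Within this list *Hoxc10* was at 1.31, 0.475 and 0.913 NRPKM in *aadd* (at most 6.99 reads) and at most 0.277 in any WT library (at most 1 read), without overlap. Genes for Hox cofactors, which bind DNA together with Hox proteins, were also listed. *Pknox2* was called lower along the WT gradient (-1.33, SE 0.37, adjusted *P* = 0.0584) and higher in *aadd* (1.45, SE 0.16, adjusted *P* = 0.0408), at 5.39, 5.56 and 5.20 NRPKM in resting and 15.5, 13.1 and 16.1 in *aadd*. *Pbx2*, *Pbx3* and *Pknox1* were not called in either comparison.

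Markers of other cells and limb segments also differed between *aadd* and WT resting. A list of 9 distal limb genes, which includes *Hoxa13*, *Hoxd12* and *Hoxd13*, summed to 7.26 to 13.03 NRPKM in resting and 43.6 to 59.8 in *aadd*, and 2 of the 3 members that passed the filter did so only through *aadd* (*Hoxd13* and the zinc finger gene *Sall1*, at 0.298 to 1.90 NRPKM in resting and 7.04 to 9.61 in *aadd*), so their calls are not counted. The third was not called. *Evx2* was at 0 in all *aadd* libraries, *Msx1* was at 0 in 2 of them, and *Msx2* (1.99 to 3.72 NRPKM) overlapped with resting (2.89 to 3.44). The joint list summed to 134 to 168 NRPKM in resting and 239 to 252 in *aadd*, and of the 8 members that passed the filter in WT libraries alone 3 were called higher and none lower, against 3.78% of all genes called higher. The perichondrium and fibroblast list summed to 653 to 1029 NRPKM in resting and 663 to 1311 in *aadd*. Of its 10 members 1 was called higher, *Twist1* (1.39, SE 0.33), against 3.78% of all genes. Skeletal muscle genes summed to 9.80 to 19.3 NRPKM in resting and 19.4 to 63.2 in *aadd*. Of the 10 muscle genes 3 were tested, and 2 of these were called higher, against 3.78% of all genes. They were the actin gene *Actc1* (2.97, SE 0.44, adjusted *P* = 0.096) and the myosin light chain gene *Mylpf* (1.82, SE 0.71, adjusted *P* = 0.477). Erythroid genes summed to 41.6 to 51.8 NRPKM in resting and 63.3 to 99.98 in *aadd*. Of the 5 erythroid genes 3 were tested, and 1 was called higher, against 3.78% of all genes. It was the embryonic globin gene *Hbb-y* (1.92, SE 0.76, adjusted *P* = 0.488). Without the filter on low values the calls of *Mylpf* and *Hbb-y* were lost. Of the 12 cartilage genes 0 were called in either direction. The endothelial list reached 38.9 NRPKM in *aadd* replicate 2 and 5.81 and 10.5 in the other two, against at most 12.1 in resting, and without that library the 3 HoxD calls stood. The part of joint, distal, perichondrial, muscle and blood cells in the levels of the Hox genes was not tested.

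The genes whose profiles over the 12 libraries were most like those of the members are named by the root mean square difference between centred log2 profiles, a description in which all points share the same libraries. *Hoxd11* was nearest to *Dcx* (0.45), which encodes a microtubule-binding protein, the zinc finger gene *Osr1* (0.51) and the Hedgehog co-receptor gene *Cdon* (0.68), against a median of 2.08 over all genes tested. *Hoxd10* was nearest to *Dcx* (0.48), *Dlgap1* (0.53) and *Sfrp2* (0.64), and *Hoxd9* to *Gas2* (0.39), *Adamts15* (0.65) and *Pknox2* (0.65). *Gas2* followed *Hoxd9* closely, at 9.49, 12.4 and 4.46 NRPKM in resting, means of 2.86 and 3.04 in the later compartments and 39.5, 36.5 and 37.7 in *aadd*. For the HoxA genes many more genes lay near, the closest being *Tcea2* for *Hoxa9* (0.30), *Ezr* for *Hoxa10* (0.34) and *Gng2* for *Hoxa11* (0.42), followed by *4930452B06Rik* and *BC039771*, *Tnfrsf18* and *Nsg1*, and *Arhgef3* and *Ung*. Within the members, the HoxD genes were 0.68 to 1.03 from each other, the HoxA genes 0.56 to 0.76, and pairs across the clusters 1.05 to 2.08. Outside the members, 4 genes were nearer to *Hoxd10* than *Hoxd11* was, and 61 were nearer to *Hoxd9* than *Hoxd11* was. In HoxA, 570 were nearer to *Hoxa10* than *Hoxa11* was, and 4068 were nearer to *Hoxa9* than *Hoxa11* was. These counts are not on a like scale between the clusters, because genes in general lay farther from *Hoxd10* (median 1.81) than from *Hoxa10* (0.75).

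**Figure D5:**
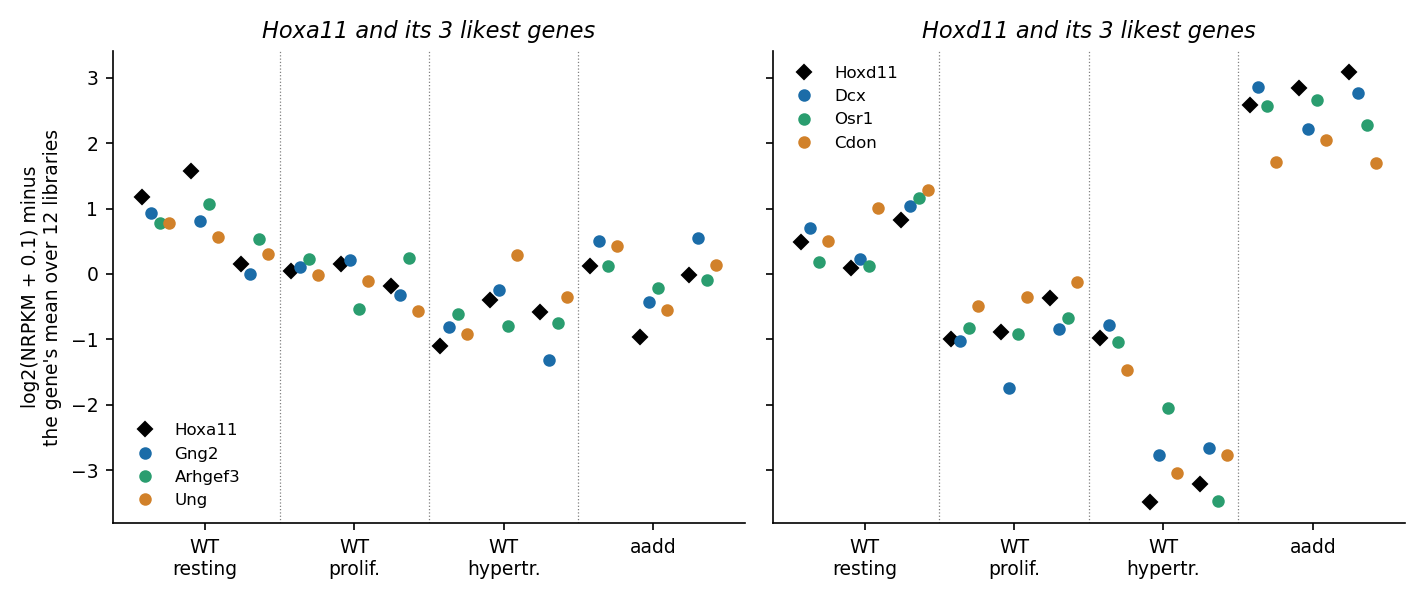
log2(NRPKM + 0.1) minus each gene's mean over 12 libraries, for *Hoxa11* (left, black diamonds) and *Hoxd11* (right, black diamonds) with the 3 genes of most similar profile (coloured points), by library within the 4 groups. On the right all 4 genes have their highest values in *aadd* libraries, and on the left the spread between groups is smaller.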

How the data were processed

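Cells, mainly chondrocytes, were isolated by LCM and RNA (20 ng per sample) was amplified with the NuGEN Ovation system. The authors aligned reads to mm10 (TopHat is named in the submitters' processing notes), analyzed them in GeneSpring, removed multiply aligned, low-quality and duplicate reads, and deposited normalized RPKM (NRPKM) for 12 libraries, 3 in each of 4 groups. The method of normalization between libraries and the use of strand are not given in the sources used here. All 12 value columns were matched to samples by name. Log2(NRPKM + 0.1) was fitted with limma 3.58.1 in R 4.3.3 to the 10936 genes (all 6 members among them) that reached 5 NRPKM in 3 or more of the 12 libraries, with Benjamini-Hochberg adjustment over those genes. Genes were called at an unadjusted *P* of at most 0.05 with a fold of at least 2 between WT compartments or 1.5 for *aadd*. The fit was tested on simulated normal values, which have no floor of few reads. Of genes changed by 2 on the log2 scale 96% were called in the WT trend and 97.5% in the *aadd* comparison. Of genes changed by 1, 49% and 76% were called. A change of 1 is itself the 2-fold limit of the WT calls, which caps the first of these shares. At an adjusted *P* under 0.05 in limma, 27% and 0% of genes changed by 1 were recovered, and 82.5% and 68% of those changed by 2. Counted reads are estimates from the smallest step of 1869 single-exon receptor genes. Same-numbered WT resting and proliferative libraries deviated together (correlations of 0.18 to 0.28), and those of other comparisons did not all exceed 0.1. Correlations between differently numbered libraries were not computed. The named genes are the 6 members, every row inside HoxA or HoxD above 5 NRPKM or overlapping a member, called Hox genes and cofactors, and the 3 likest genes of each member. The members and lists were chosen with earlier results of these data known. Promoter windows and transcripts came from RefSeq (GRCm38.p6) and GENCODE M21 for mm10, with all 6 members matched. Some cofactor and sequence results are not reported here.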

Additional observations from a re-analysis of the deposited data

How the results depend on the processing

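Counts of members called along the WT gradient were 5 to 6 with 1 library left out, those between hypertrophic and resting 5 to 6, those between proliferative and resting 3 to 6 and those between *aadd* and resting 3 to 5. A pseudocount of 1 left 3 members called between proliferative and resting. The single call between hypertrophic and proliferative was lost (0 members) with a pseudocount of 1, without the filter on low values and with a variance trend, and with 1 library left out the count was 0 to 1. With 1 library left out, all genes called numbered 1167 to 1699 for the WT gradient, 508 to 809 for proliferative against resting, 658 to 2007 for hypertrophic against proliferative (1057 with all libraries, 2007 without hypertrophic replicate 1 and 658 without replicate 3), 1196 to 2105 for hypertrophic against resting and 547 to 997 for *aadd* against resting. Without the filter these counts were 2706, 1495, 1929, 2537 and 1267, because more genes were tested. With 1 library left out, directions turned only where the change was small, for *Hoxa10* (-0.37 to 0.20) and *Hoxd9* (-0.62 to 0.43) between hypertrophic and proliferative and for *Hoxa9* between *aadd* and resting (-0.076 to 0.39). With the replicate block, 6 members were called along the gradient and 4 in *aadd* against resting, where the adjusted *P* of *Hoxd11* was 0.149 and 0 genes of all tested had an adjusted *P* under 0.05 in place of 13 (1048 had an unadjusted *P* under 0.05 without the block). The labels do not state that the numbers pair libraries, so these losses say nothing of a weaker effect. Group means of the members under rescaling by the median of ratios or quantile normalization stayed within 1 SD of the reported means in all 48 cases. Of the 18 likest genes, 13 were kept with a pseudocount of 1 and 18 with rescaling. Values of *Hoxd11* in hypertrophic cells and *Hoxd9* in proliferative cells are limited by depth. The cause of the other changes was not tested.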
